A study of Mus musculus with 2 samples.

Results

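The mitochondrial ribosomal protein genes are the nuclear genes for the proteins of the ribosome inside mitochondria. They were taken from the deposited expression table as every gene whose symbol starts with Mrpl (large subunit) or Mrps (small subunit) followed by a number, which gave 77 of 18919 genes, 48 for the large and 29 for the small subunit. The table holds intestinal RNA of 2 pools of C57BL/6 mice, each a mixture from 3 littermates at 2 months of age. The knockout pool had the genotype APCmin; Setd2IEC-/-, in which Setd2, the gene of the histone H3 lysine 36 methyltransferase, was deleted in the intestinal epithelium. The control pool had the genotype APCmin, so that both pools carried the Min mutation of the tumour suppressor Apc, which gives intestinal adenomas. Each genotype had 1 library, and no difference given here has a replicate check. The promoter that drove Cre is not given in the sources used here, and cells outside the epithelium kept Setd2.

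Mitochondria keep a small genome of their own, whose messages encode core subunits of the respiratory chain and of ATP synthase. These messages are read by a dedicated ribosome, whose RNAs come from the mitochondrial genome while all of its proteins are made in the cytosol and imported. Part of these proteins descend from the bacterial ribosome, and the others were added in the mitochondrial lineage. Absorptive enterocytes and crypt stem cells of the intestine are known to rely on respiration, and the assembly of respiratory complexes needs this ribosome. Genes encoded in mitochondrial DNA itself are not analysed here.

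The knockout library held 8646358 expected counts and the control library 8809678. Setd2 itself was at 3.47 FPKM (fragments normalised for transcript length and library size) in the knockout pool, against 6.87 FPKM in the control pool. Its scaled count ratio was 0.504 (95% counting interval 0.432 to 0.587). Among markers of other cells, all 12 of the exocrine pancreas were at least 2-fold higher, with a summed level of 2587 FPKM in the knockout pool against 65.19 FPKM in the control pool, where Prss1 was at 0. All 4 measured of 6 red cell markers were at least 2-fold higher too, with 240.0 FPKM over the list in the knockout pool against 66.06 FPKM in the control pool, with Slc4a1 at 0 in the control pool. Crypt proliferation markers were above 0 on the log2 scale in 12 of 12 cases (summed 316.7 FPKM against 213.4 FPKM). Absorptive enterocyte markers were below 0 in 11 of 12 (23218 FPKM against 31946 FPKM). Over all 13253 measured genes 62.5% were above 0 and 2.78% were at least 2-fold higher. The 6 smooth muscle markers summed to 441.9 FPKM in the knockout pool and 443.5 FPKM in the control pool. Of 7 immune markers, 5 were below 0, while their sum was 782.3 FPKM in the knockout pool against 655.6 FPKM in the control pool, of which the plasma cell gene Jchain made up 744.7 FPKM and 609.1 FPKM. All 6 epithelial markers of the labelled tissue were present in both pools, with summed levels of 4703 FPKM in the knockout pool and 5007 FPKM in the control pool. In bulk tissue, a change in the number of cells of a type and a change in RNA per cell cannot be told apart, and the part these markers play in the values below was not tested.

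Promoter stretches of 6 members are shown because some hold short motifs found in part of the members and others hold none of them. All are from RefSeq (build GRCm38.p6) and give the 150 bases before the annotated start, 5′ to 3′ on the gene's strand. Capitals mark 3 short cores searched on both strands: GCGC and TGCGC with any 1 base between them for NRF1, a factor of nuclear genes for mitochondria, CCGGAAG of the ETS family, to which GABP belongs, and AAGATGG of YY1. Mrpl30 (chr1:37890327-37890476, plus strand) and Mrpl52 (chr14:54426759-54426908, plus strand) had ratios near the top of the large subunit. Mrpl12 (chr11:120484487-120484636, plus strand) was the most abundant member, and Mrpl39 (chr16:84735245-84735394, minus strand) had a ratio near the bottom of that subunit. Mrps6 (chr16:92058186-92058335, plus strand) and Mrps15 (chr4:126046778-126046927, plus strand) were the highest and the lowest ratio of all members.
Mrpl30: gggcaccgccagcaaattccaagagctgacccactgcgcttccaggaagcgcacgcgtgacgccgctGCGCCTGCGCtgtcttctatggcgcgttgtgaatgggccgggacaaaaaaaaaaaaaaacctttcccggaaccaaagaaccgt
Mrpl52: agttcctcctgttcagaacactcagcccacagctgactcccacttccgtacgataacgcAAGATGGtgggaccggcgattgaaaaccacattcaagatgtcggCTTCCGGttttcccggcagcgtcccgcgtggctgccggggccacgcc
Mrpl12: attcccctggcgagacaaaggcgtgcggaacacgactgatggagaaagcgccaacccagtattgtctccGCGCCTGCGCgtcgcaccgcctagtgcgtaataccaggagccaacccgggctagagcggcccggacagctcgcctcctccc
Mrpl39: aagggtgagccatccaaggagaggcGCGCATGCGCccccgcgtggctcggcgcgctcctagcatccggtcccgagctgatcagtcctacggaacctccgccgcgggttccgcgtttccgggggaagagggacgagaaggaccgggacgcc
Mrps6: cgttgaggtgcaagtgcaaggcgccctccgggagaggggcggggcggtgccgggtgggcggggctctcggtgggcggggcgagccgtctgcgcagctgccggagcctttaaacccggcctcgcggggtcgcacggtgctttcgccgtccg
Mrps15: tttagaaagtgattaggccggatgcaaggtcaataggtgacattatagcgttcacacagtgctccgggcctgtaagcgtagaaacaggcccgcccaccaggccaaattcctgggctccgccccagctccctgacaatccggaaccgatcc
An NRF1 core stands in the stretches of Mrpl30, Mrpl12 and Mrpl39, whose log2 ratios were 0.35, 0.03 and -0.18. The stretch of Mrpl52 holds a YY1 core and an ETS core, and those of Mrps6 and Mrps15 hold none of the 3 cores in these letters.

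Measured levels of the members were close between the pools. All 77 members had an FPKM of at least 1, the limit for counting a gene as measured, in both libraries. Pools were compared per gene on the log2 scale, as knockout FPKM plus 1 divided by control FPKM plus 1. None of the 77 members was at least 2-fold higher and none was at least 2-fold lower, where 2.78% of the 13253 measured genes were higher by this rule and 1.28% lower, 4.07% in all. Of the members, 65 (84.4%) lay within 0.25 of 0 on this log2 scale, against 59.6% of all measured genes. That share was 68.9% among the 8288 measured genes with at least 112 counts in both libraries, which is the lowest count of any member. By subunit it was 87.5% for the large and 79.3% for the small. Nuclear genes of the respiratory chain had a similar share, 81.7%, and cytosolic ribosomal protein genes had 55.7%. Levels of the members spanned 5.06 to 175.1 FPKM in the knockout pool, a 34.6-fold range, and 4.15 to 171.0 FPKM in the control pool, a 41.2-fold range.

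The centre of the family was near the centre of all genes. The median log2 ratio was 0.05 for all members, 0.05 for the large and 0.10 for the small subunit, against 0.08 for all measured genes. Log2 ratios above 0 were found for 35 of 48 large and 18 of 29 small subunit genes, together 53 of 77, and for 62.5% of all measured genes. The sign of both subunit medians depends on the scaling. Median-ratio scaling shifts log2 ratios by -0.10 at high levels, and by less at low levels because 1 FPKM is added. After it the large subunit median was -0.05 with 19 of 48 genes above 0. The small subunit median was 0.00038 with 15 of 29. With TMM factors, where the shift at high levels is -0.11, the 2 medians were -0.06 with 17 of 48 and -0.01 with 14 of 29. Against the median of all genes, 34 members were above it and 43 below it.

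Counting error covers most of the single differences. For each gene the ratio of expected counts, scaled to the library totals, was given a 95% interval from the exact Clopper-Pearson method, which covers counting error only. The interval lay above 1 for 11 members and below 1 for 4, and included 1 for the other 62. Across all measured genes, 28.0% lay above 1 and 12.5% below 1, against 14.3% and 5.19% of the members. After median-ratio scaling the interval lay above 1 for 4 members and below 1 for 8. The members had between 112 and 1430 counts per library.

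**Figure D1:**
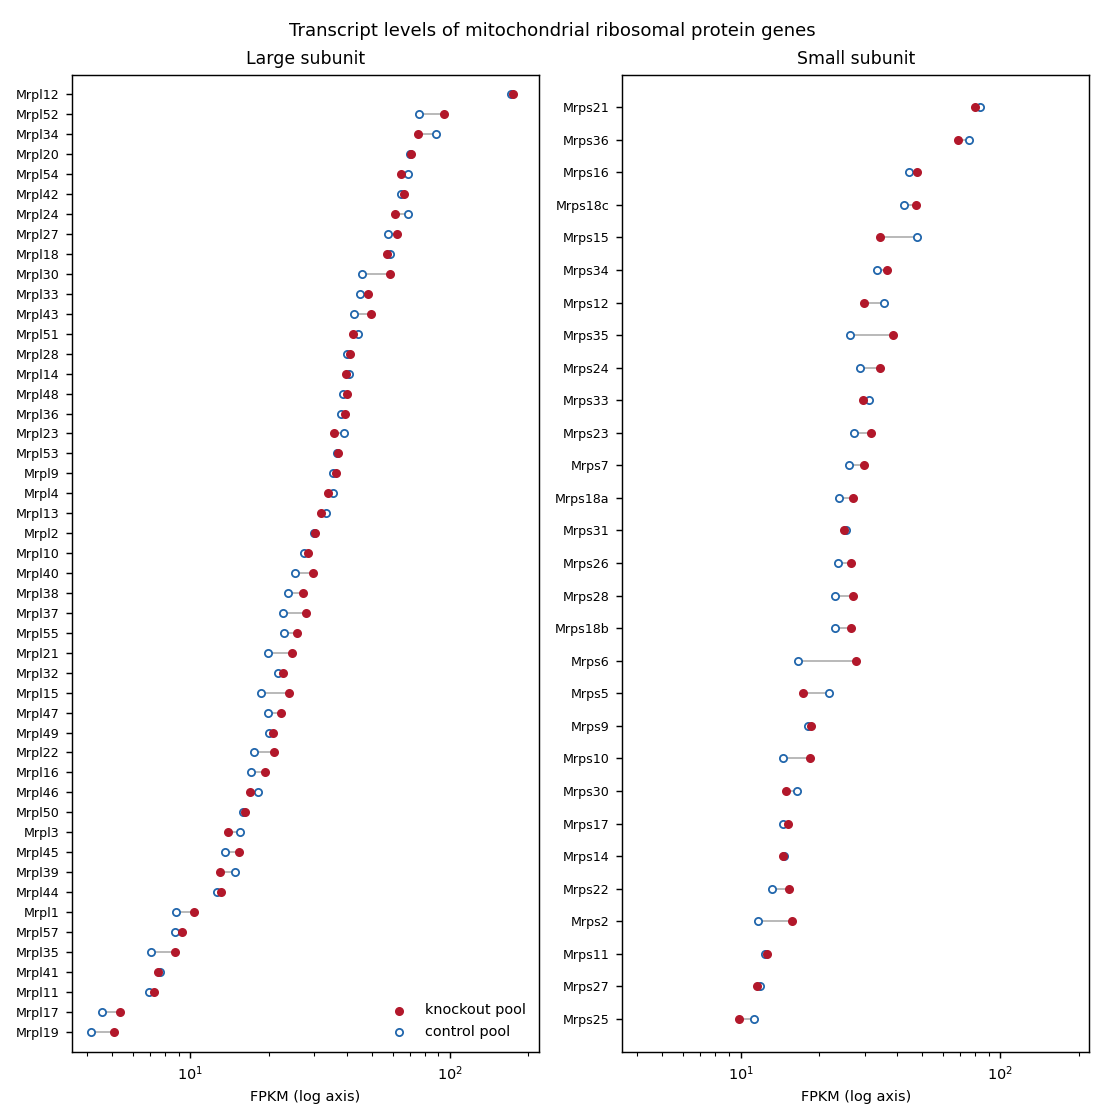
FPKM (log axis) of the 48 large subunit and 29 small subunit genes, ordered by mean level, in the knockout pool (filled red) and the control pool (open blue), 1 library each. The 2 symbols nearly coincide for most genes, and Mrps6, Mrps35 and Mrps15 are among those with visible gaps.

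Large subunit genes with the highest ratios encode proteins of the bacterial type and mitochondrial additions alike. Mrpl30 (gene identifier 107734, chromosome 1, 37890477 to 37898338), the counterpart of bacterial L30, was at 58.58 FPKM in the knockout pool and 45.75 FPKM in the control pool. Its expected counts were 338 and 269, and the scaled ratio was 1.28 (1.09 to 1.51). Mrpl15, the counterpart of L15, was at 23.90 FPKM against 18.76 FPKM, a count ratio of 1.19 (1.05 to 1.35), from counts that are not whole numbers in either library. Its deposited transcript length was 2696 nt in the knockout file and 2879 nt in the control file. On the log2 scale its ratio was 0.35 by FPKM without the added 1 and 0.25 by counts. Mrpl52, a mitochondrial addition and the second most abundant large subunit gene in the knockout pool, was at 94.80 FPKM against 75.84 FPKM, a ratio of 1.25 (1.06 to 1.48). Mrpl21, the counterpart of L21, was at 24.70 FPKM against 19.93 FPKM (1.24, 1.01 to 1.53). Mrpl37, a further mitochondrial addition, was at 27.84 FPKM against 22.81 FPKM (1.22, 1.04 to 1.43). Mrpl35 and Mrpl43 complete the 7 large subunit genes whose interval lay above 1, at 8.76 FPKM against 7.06 FPKM and 49.73 FPKM against 42.50 FPKM. The counts of Mrpl35 and Mrpl43 are not whole numbers. On the opposite strand Mrpl43 shares 385 of 1398 annotated exon bases with Twnk, and Mrpl21 shares 117 of 1363 with Ighmbp2. Each of these 7 genes was less than 1.5-fold apart between the pools. After median-ratio or TMM scaling 1 of them, Mrpl30, kept an interval above 1, and those of the other 6 included 1.

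At the other end of the large subunit, 1 gene had an interval below 1. After median-ratio scaling there were 3, Mrpl34, Mrpl39 and Mrpl24, and TMM factors added Mrpl51 to them. Mrpl34 (gene identifier 94065, chromosome 8, 71464926 to 71465753), the counterpart of bacterial L34, was at 75.14 FPKM in the knockout pool and 87.94 FPKM in the control pool, with 415 and 495 counts and a ratio of 0.854 (0.748 to 0.975). Mrpl39, a mitochondrial addition, was at 13.02 FPKM against 14.90 FPKM, a ratio of 0.873 (0.721 to 1.05). Mrpl24 was at 61.55 FPKM against 68.94 FPKM (0.893, 0.790 to 1.01), and shares 594 of its 1557 annotated exon bases with Rrnad1 on the opposite strand. Mrpl3 was at 13.90 FPKM against 15.57 FPKM, with a ratio of 0.892 and an interval that includes 1. Mrpl23, the counterpart of L23, which lines the exit of the peptide tunnel in bacteria, was at 35.55 FPKM against 38.97 FPKM (0.912, 0.738 to 1.13).

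The counting interval of the most abundant member included 1. Mrpl12 (gene identifier 56282, chromosome 11, 120484637 to 120488754), the counterpart of L7/L12, which forms the stalk that recruits translation factors, was at 175.1 FPKM in the knockout pool and 171.0 FPKM in the control pool. Its 1430 and 1423 counts gave a ratio of 1.02 (0.951 to 1.10). It stood well above the next member of the knockout pool, Mrpl52, at 94.80 FPKM. The least abundant members were Mrpl19 (5.06 FPKM against 4.15 FPKM, ratio 1.22, 0.996 to 1.49) and Mrpl17 (5.36 FPKM against 4.57 FPKM, ratio 1.17, 0.993 to 1.38). Mrpl19 shares 1962 of 5000 annotated exon bases with Gcfc2 on the opposite strand. The other 33 large subunit genes, Mrpl1 included, had log2 ratios between -0.10 (Mrpl46) and 0.25 (Mrpl22), and every one of their intervals included 1.

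For Mrpl1 the 2 deposited measures disagree. Its FPKM was 10.30 in the knockout pool and 8.83 in the control pool, while its counts were 195.8 and 200.1, a ratio of 0.997 (0.816 to 1.22). The deposited transcript length was 2195 nt in the knockout file and 2561 nt in the control file. It was the single member whose FPKM ratio and count ratio lay on opposite sides of 1, and the single one where they were over 0.1 apart on the log2 scale.

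The small subunit held the widest ratios in both directions. Mrps6 (gene identifier 121022, chromosome 16, 92058336 to 92112227), the counterpart of bacterial S6, was at 27.88 FPKM in the knockout pool and 16.65 FPKM in the control pool, with 186.4 and 113.4 counts and a ratio of 1.67 (1.32 to 2.14). By level it took rank 38 of the 77 members in the knockout pool and rank 56 in the control pool. Mrps6 shares 159 of 846 annotated exon bases with Slc5a3, the myo-inositol transporter gene on the same strand, and 305 with Gm49711, and its counts are not whole numbers. Slc5a3 was at 1.16 FPKM against 0.87 FPKM, and the 2 genes together had 298 counts in the knockout pool and 198 in the control pool, a ratio of 1.53 (1.28 to 1.84).

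Mrps35 (gene identifier 232536, chromosome 6, 147042728 to 147070906), a mitochondrial addition, was at 38.54 FPKM in the knockout pool and 26.25 FPKM in the control pool. Its counts, 350 and 243, were whole numbers, it shares no exon bases with another annotated gene, and the ratio was 1.47 (1.24 to 1.74). Mrps2, the counterpart of S2, was at 15.73 FPKM against 11.67 FPKM, with a ratio of 1.35 (1.12 to 1.62). Mrps24, which stands in the place of bacterial S3, was at 34.49 FPKM against 28.88 FPKM (1.19, 1.005 to 1.42) and was the fourth small subunit gene with an interval above 1. Its interval included 1 after median-ratio or TMM scaling, while those of Mrps6, Mrps35 and Mrps2 stayed above 1. Mrps10, the counterpart of S10, was at 18.51 FPKM against 14.62 FPKM, and its interval of 0.994 to 1.59 includes 1.

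Of the 3 small subunit genes with an interval below 1, Mrps15 and Mrps5 encode proteins with bacterial counterparts and Mrps25 a mitochondrial addition. Mrps15 (gene identifier 66407, chromosome 4, 126046928 to 126055536), the counterpart of S15, which binds the ribosomal RNA early in bacterial assembly, was at 34.44 FPKM in the knockout pool and 47.55 FPKM in the control pool. Its counts were 280 and 394, the ratio was 0.724 (0.619 to 0.846), and its rank by level was 28 in the knockout pool and 12 in the control pool. Mrps5, the counterpart of S5, was at 17.45 FPKM against 21.93 FPKM, a ratio of 0.795 (0.663 to 0.953). Mrps12, the counterpart of the decoding centre protein S12, was at 29.78 FPKM against 35.58 FPKM (0.837, 0.679 to 1.03). Mrps25, a mitochondrial addition, was at 9.87 FPKM against 11.21 FPKM (0.880, 0.781 to 0.990). The Mrps25 annotation shares 3533 of 6073 exon bases with Nr2c2, a nuclear receptor gene on the opposite strand, which was at 8.89 FPKM against 9.82 FPKM. After median-ratio or TMM scaling the intervals of Mrps12 and Mrps36 lay below 1 as well, which made 5 small subunit genes.

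The 3 most abundant small subunit genes by mean level were Mrps21, Mrps36 and Mrps16, and the intervals of all 3 included 1 when scaled by library totals. Mrps21, the counterpart of S21, was at 80.08 FPKM in the knockout pool and 83.47 FPKM in the control pool, with a ratio of 0.959 (0.810 to 1.14). Mrps36 was at 68.66 FPKM against 75.61 FPKM (0.908, 0.793 to 1.04). Its protein, despite the name, is known as a part of the 2-oxoglutarate dehydrogenase complex. Mrps16 was at 47.55 FPKM against 44.35 FPKM (1.07, 0.884 to 1.30), and Mrps27, among the least abundant, was at 11.52 FPKM against 11.92 FPKM (0.966, 0.786 to 1.19). The other 16 small subunit genes had log2 ratios between -0.12 (Mrps30) and 0.23 (Mrps28), with intervals that included 1 in all 16.

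**Figure D2:**
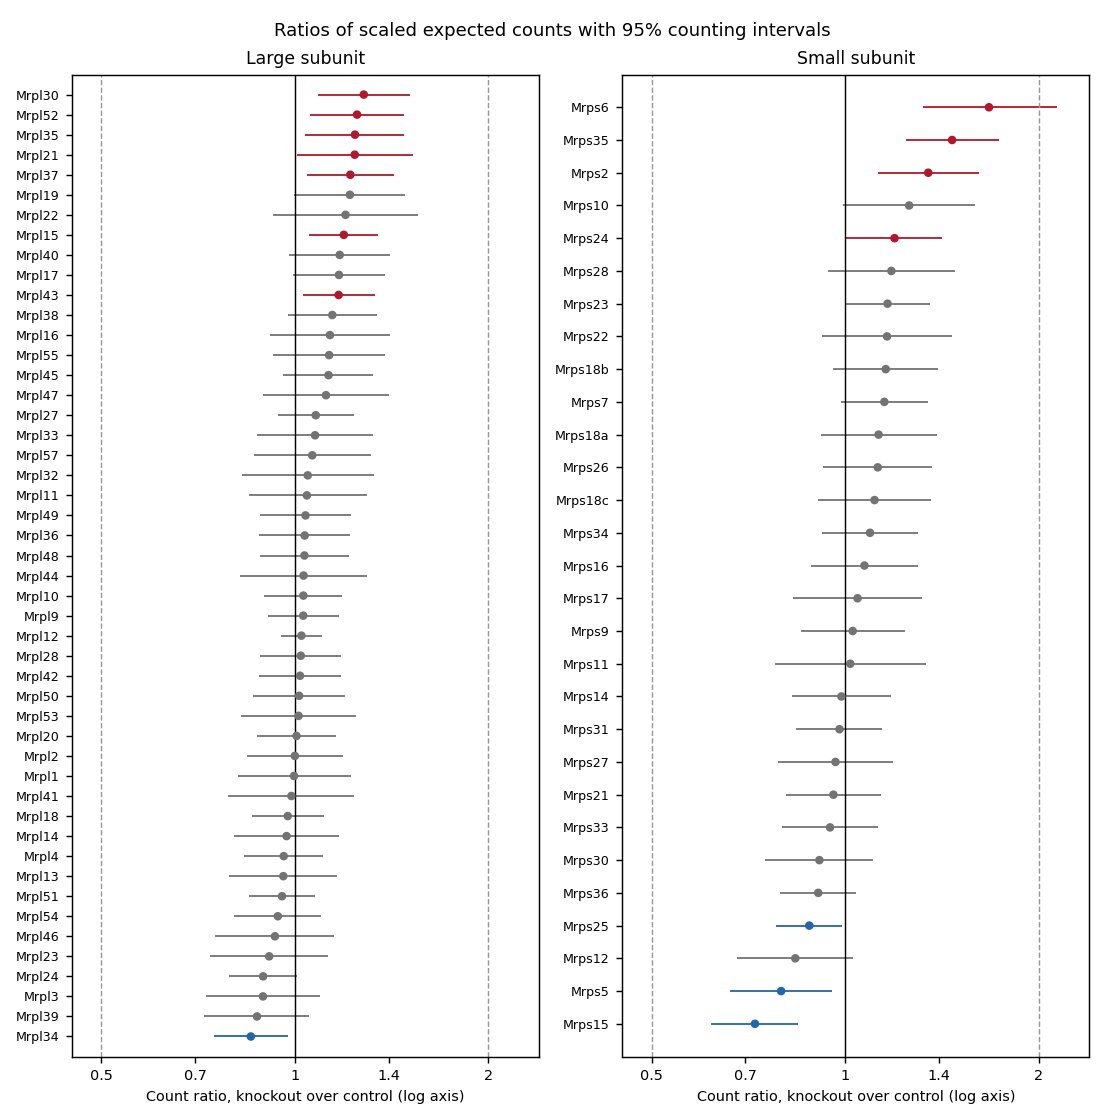
Ratio of scaled expected counts, knockout over control (log axis), for each gene with its 95% counting interval, red where the interval lies above 1 (11 genes), blue where it lies below 1 (4 genes) and grey otherwise, with dashed lines at 2-fold in each direction. All points lie inside the dashed lines, and the spread is wider in the small subunit, where Mrps6 (1.67) and Mrps15 (0.724) mark the ends.

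Division by evolutionary origin gave no class apart from the others in these values. Among large subunit proteins of the bacterial type, 22 of 30 genes had a log2 ratio above 0 and the median was 0.05. Among mitochondrial additions of the large subunit, counting Mrps30 and Mrps18a, whose proteins sit in the large subunit in known structures, 14 of 20 were above 0 and the median was 0.04. In the small subunit 11 of 16 bacterial-type genes were above 0, with a median of 0.08, and 6 of 10 mitochondrial additions, with a median of 0.14. No class held a gene past 2-fold. Over all measured genes 62.5% were above 0 and 4.07% past 2-fold in either direction. All 4 medians stood between those of the cytosolic ribosome and the respiratory chain, given below, and the differences between classes were not tested.

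Of 7 listed mitoribosome proteins that go by other symbols 6 were found in the data, with a median log2 ratio of 0.12 and none past 2-fold. Gadd45gip1, of the large subunit, was at 26.88 FPKM in the knockout pool and 21.32 FPKM in the control pool (1.26, 1.09 to 1.46). Ptcd3, a pentatricopeptide protein of the small subunit, was at 16.07 FPKM against 13.55 FPKM (1.19, 1.02 to 1.38). The intervals of Ict1, the ribosome rescue factor built into the large subunit (31.88 FPKM against 27.29 FPKM), Aurkaip1 (48.58 FPKM against 48.05 FPKM), Dap3 (9.32 FPKM against 9.68 FPKM) and Chchd1 (39.33 FPKM against 41.84 FPKM) included 1.

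Genes for factors that build and run this ribosome had medians of 0.08 to 0.10. Of 17 measured translation factors 11 (64.7%) were above 0, near the 62.5% of all measured genes, and the median was 0.10. None was past 2-fold, where 4.07% of all measured genes were. Lrpprc, which stabilises mitochondrial messages, was at 19.08 FPKM in the knockout pool and 11.65 FPKM in the control pool (1.64, 1.46 to 1.84), and Mtrf1l, a release factor, was at 4.70 FPKM against 3.06 FPKM (1.54, 1.13 to 2.10). Tufm, the elongation factor that carries aminoacyl-tRNA and the most abundant of the list, was at 85.53 FPKM against 71.61 FPKM (1.19, 1.10 to 1.30). Mrrf, the ribosome recycling factor, was at 4.92 FPKM against 6.79 FPKM (0.725, 0.552 to 0.948). Of 38 listed assembly and rRNA modification factors 32 were measured, 19 of them (59.4%) above 0 and none past 2-fold, with a median of 0.08. Rpusd4, a pseudouridine synthase of mitochondrial rRNA, was at 6.91 FPKM against 4.60 FPKM, and Mpv17l2 at 27.79 FPKM against 20.85 FPKM. Trmt2b, a methyltransferase, was at 10.83 FPKM against 14.62 FPKM, Trub2, a pseudouridine synthase, at 5.35 FPKM against 7.20 FPKM, and C1qbp, the most abundant, at 61.49 FPKM against 55.94 FPKM.

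The list of mitochondrial tRNA synthetases had 15 of 20 measured genes above 0, none past 2-fold and a median of 0.16. It also holds Gatb, Gatc and Qrsl1, whose products form a tRNA amidotransferase and are not synthetases. Iars2, which charges isoleucine tRNA, was at 15.58 FPKM in the knockout pool and 9.73 FPKM in the control pool (1.60, 1.38 to 1.85), Lars2, for leucine, at 4.78 FPKM against 3.37 FPKM, and Gatc at 7.17 FPKM against 8.32 FPKM. Synthesis and processing of mitochondrial DNA and RNA had 13 of 18 genes (72.2%) above 0 and a median of 0.13. Its highest ratio was that of Polg, the catalytic subunit of the mitochondrial DNA polymerase, at 23.53 FPKM against 11.02 FPKM, a count ratio of 2.13 (1.91 to 2.39) and a log2 ratio of 1.03, the only gene past 2-fold in the lists of mitochondrial gene expression, and under 2-fold after the -0.10 shift of median-ratio scaling. Fastk, at 34.17 FPKM against 41.74 FPKM, was at the other end. Among 9 regulators of mitochondrial biogenesis, 7 (77.8%) were above 0, and the median was 0.21. The interval lay above 1 for 4 (44.4%) and below 1 for 2 (22.2%), against 28.0% and 12.5% of all measured genes. Myc was at 10.04 FPKM against 5.80 FPKM (1.73, 1.38 to 2.18) and Pprc1, a coactivator related to PGC-1, at 5.80 FPKM against 3.79 FPKM. Ppargc1a, which encodes PGC-1 alpha, was at 9.30 FPKM against 10.94 FPKM (0.850, 0.755 to 0.955), and the nuclear receptor gene Esrra at 156.3 FPKM against 173.9 FPKM (0.898, 0.856 to 0.943).

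Cytosolic ribosomal protein genes and nuclear genes of the respiratory chain lay on either side of the family. In the knockout pool 78 of 79 measured cytosolic ribosomal protein genes had a log2 ratio above 0, with a median of 0.24. For 72 of them (91.1%) the interval lay above 1, against 28.0% of all measured genes. Summed counts of that list had a ratio of 1.19 (1.18 to 1.20), and Rpl22, at 53.44 FPKM against 57.80 FPKM, was its one gene below 0. Cytosolic ribosomal protein genes have many near-identical pseudogenes, and how reads of these were assigned is not given in the sources used here. Expected counts were whole numbers in both libraries for most listed genes, such as Rpl4 (7010 and 5817). For others, such as Rps3 (4949.3 and 4584.02), they were not. Of 82 measured nuclear genes for respiratory chain and ATP synthase subunits, 65 were below 0 and 17 above 0, with a median of -0.10. Log2 ratios in this list ran from -0.50 to 0.70. The interval lay below 1 for 38 (46.3%) and above 1 for 5 (6.10%), against 12.5% and 28.0% of all measured genes. The summed count ratio of the list was 0.942 (0.936 to 0.948), with Ndufa10, a complex I subunit, at 72.07 FPKM against 102.7 FPKM. The summed ratio of the mitochondrial ribosome lay between, at 1.04 (1.02 to 1.07) for the large and 1.04 (1.005 to 1.07) for the small subunit. Both turned with the scaling: after median-ratio scaling they were 0.974 (0.952 to 0.996) and 0.969 (0.938 to 1.001), and with TMM factors 0.967 (0.945 to 0.989) and 0.962 (0.931 to 0.994). In the same libraries the summed level of crypt proliferation markers was higher and that of enterocyte markers lower, as given above. Scaling shifts all 3 groups together and leaves their order as it is: after median-ratio scaling the medians were 0.14 for the cytosolic ribosome, -0.04 for the mitochondrial ribosome and -0.20 for the respiratory chain. The intervals of the sums cover counting error only and say nothing of variation between mice.

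**Figure D3:**
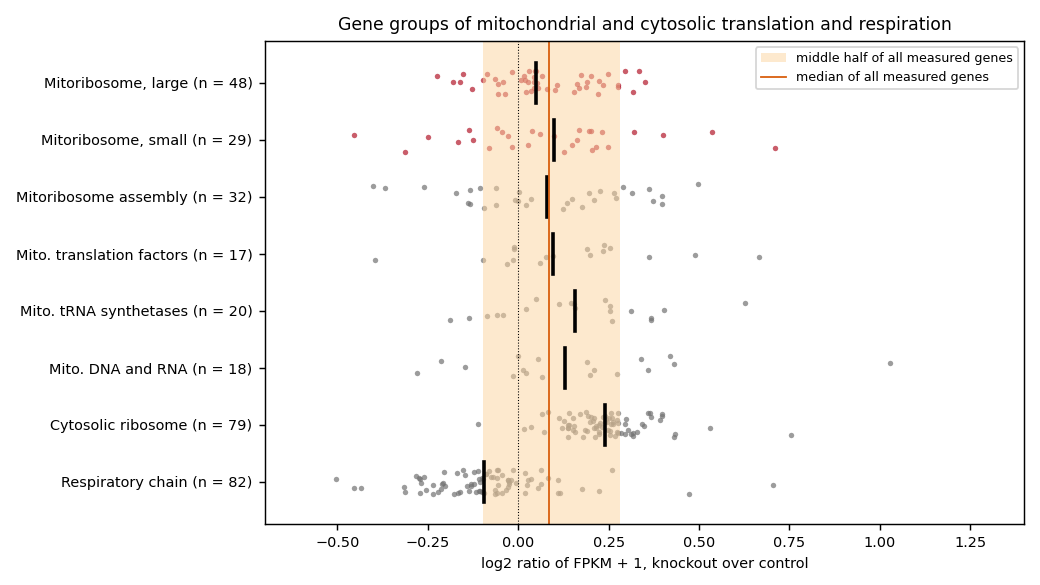
Each point is a gene's log2 ratio of FPKM + 1, knockout over control, in the 2 mitoribosomal subunits (red) and in 6 other gene groups (grey), with black bars at the group medians. The orange line and band give the median (0.08) and the range between the quartiles of all 13253 measured genes. Both subunits centre near that line, the cytosolic ribosome to its right (0.24) and the respiratory chain to its left (-0.10). Median-ratio scaling would move points by -0.10 at high levels and by less at low levels.

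Some promoter motifs, which were not used to choose the members, were more frequent among them than among all measured genes. RefSeq promoter windows of 300 bases (250 before and 50 after the annotated start) were at hand for 68 of the 77 genes, 74 windows in all, and the others were Mrpl4, Mrpl13, Mrpl15, Mrpl19, Mrpl38, Mrpl54, Mrps28, Mrps34 and Mrps35. An NRF1 core was found in 17.6% of the members' windows, against 9.17% of the windows of all measured genes and 4.60% of all 32851 windows. For the ETS core these shares were 33.8%, 16.7% and 8.86%, and for the YY1 core 17.6%, 6.99% and 6.34%. In all, 42 of 68 genes held at least 1 of the 3 cores, 9 held 2 or more and 26 held none. These combined counts were not made over all genes. An ETS core and a YY1 core can overlap, as the first ends and the second begins in AAG. The E-box CACGTG, at 9.46% against 9.66% of measured genes, and the TATA box TATAAA, at 6.76% against 7.93%, were near the background, the GC box GGGCGG (52.7% against 60.1%) lay below it, and CCAAT (40.5% against 37.7%) a little above it. A match of letters does not show that a factor binds.

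Members with and without an NRF1, ETS or YY1 core had similar median log2 ratios, and none of these splits was tested. The median was 0.04 for the 13 genes with an NRF1 core and 0.05 for the 55 without, 0.10 for the 25 with an ETS core and 0.04 for the 43 without, and 0.06 for the 13 with a YY1 core against 0.04 for the 55 without. The widest split was that of the CCAAT box, with a median of 0.02 for the 27 genes that hold it and 0.15 for the 41 that do not. As the stretches printed above show, an NRF1 core stands before Mrpl30 (58.58 FPKM in the knockout pool, 45.75 FPKM in the control pool) and before Mrpl39 (13.02 FPKM against 14.90 FPKM).

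**Figure D4:**
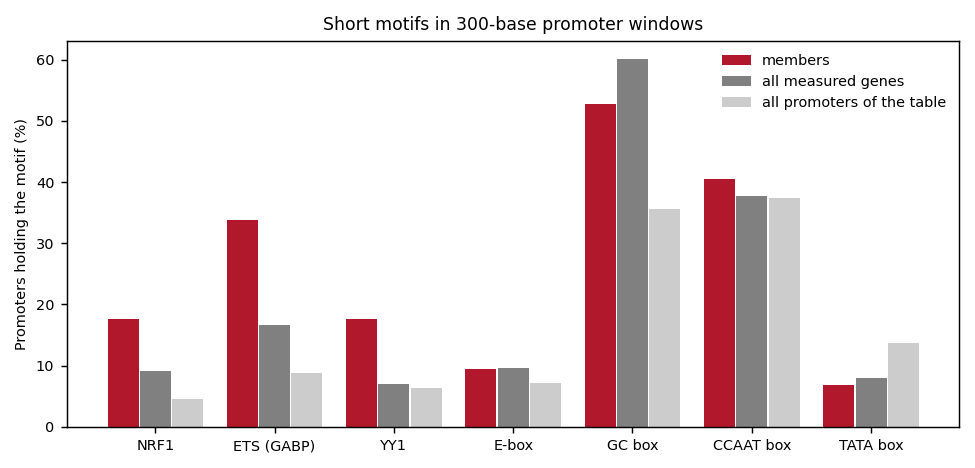
Share of 300-base promoter windows that hold each short motif on either strand, for the 74 windows of the members (red), the windows of all measured genes (dark grey) and all 32851 windows (light grey). Members stand above both backgrounds for the NRF1, ETS and YY1 cores.

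Many members start close to a gene on the opposite strand. In the GENCODE M21 annotation of the same build, 33 of the 77 genes (42.9%) had a protein-coding gene on the other strand whose start lay within 1000 bases, against 15.6% of 12450 measured protein-coding genes. One such pair holds a member on each side, Mrpl46 and Mrps11 on chromosome 7, with starts 412 bases apart. Mrpl46 was at 16.97 FPKM in the knockout pool and 18.22 FPKM in the control pool, and Mrps11 at 12.63 FPKM against 12.39 FPKM. The start of Mrps12 lies 172 bases from that of Sars2, the mitochondrial seryl-tRNA synthetase gene, and Sars2 was at 5.75 FPKM against 5.53 FPKM. The start of Mrpl30 lies 66 bases from that of Mitd1, and Mitd1 was at 6.19 FPKM against 9.80 FPKM, the opposite direction to Mrpl30. Mrps18c, at 47.26 FPKM against 42.51 FPKM, starts 29 bases from Helq, a DNA helicase gene at 3.36 FPKM against 1.89 FPKM.

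When scaled by library totals, neighbours and members more often differed than matched in sign, which was not tested. Of the 33 members with such a neighbour, 28 had one that was measured, and the log2 ratios had the same sign in 10 cases and the opposite sign in 18, with the Mrpl46 and Mrps11 pair counted from both sides. None of these neighbours was past 2-fold, and their median log2 ratio was 0.04. Most of these ratios are near 0, where the sign depends on the scaling of the libraries. The balance of same and opposite signs can therefore turn with the scaling, and it was not counted for neighbours over all genes. Members with such a neighbour had a median log2 ratio of 0.04, and the 44 without one had a median of 0.10.

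**Figure D5:**
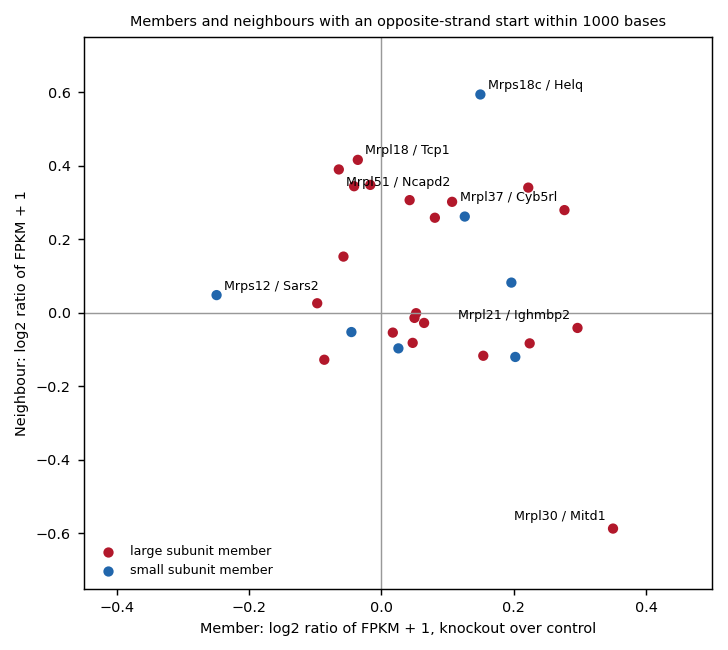
Log2 ratio of FPKM + 1, knockout over control, of 28 members (horizontal axis) and of the measured protein-coding gene whose opposite-strand start lies within 1000 bases (vertical axis), red for large and blue for small subunit members. Points lie in all 4 quadrants, with 18 in the 2 quadrants of opposite sign when scaled by library totals, and Mrpl30 with Mitd1 is the most discordant pair.

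Levels kept nearly the same order in both pools. Across the 77 members the levels in the 2 libraries had a Spearman correlation of 0.978 and a Pearson correlation of 0.981 on the log2 scale, a description over genes that share transcript length and sequence. Mrps6, Mrps35 and Mrps15 were the 3 members that moved by more than 10 ranks. Transcript length had a Spearman correlation of 0.08 with the log2 ratio over the 77 genes, and mean level one of -0.19.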

How the data were processed

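Per the labels' protocols and the submitters' processing notes, reads from 1 library per genotype, each of RNA mixed from 3 littermates, were mapped to mm10 with BWA and Bowtie2 and quantified per gene with RSEM; tool versions, annotation and strand setting are not given in the sources used here. Per the file headers, the authors deposited expected counts, which divide reads that match several genes, and FPKM values, and a series table of the same FPKM. Of the 77 members, 62 had whole counts in both libraries and 15 did not. Gene symbols turned into dates by a spreadsheet were repaired for 26 genes from the gene identifier.

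A gene was measured at an FPKM of 1 or more in at least 1 library. The compared value was log2((FPKM + 1) in knockout / (FPKM + 1) in control), called past 2-fold at 1 or -1. Count ratios were scaled to the summed expected counts, and their 95% Clopper-Pearson intervals, on rounded counts, cover counting error only. With 1 library per group no test, p-value or standard error was computed. Named members were the 5 highest and 5 lowest ratios and the 3 most and 2 least abundant in each subunit; other lists give up to 2 highest, 2 lowest and the most abundant. Genes named beyond that rule (neighbours, overlapping genes, Mrpl1, members outside these ranks) were chosen after their values were seen. The members and lists were chosen with earlier results of these data known. Lists of cytosolic ribosomal and respiratory chain genes were taken by symbol pattern. Positions are from RefSeq (GRCm38.p6, the assembly of mm10) and exon overlaps and neighbouring starts from GENCODE M21, whose gene names were matched to the table by symbol or, where that failed, by gene identifier through RefSeq. Python 3.11.15, SciPy 1.17.1 and edgeR 4.0.16 (TMM factors alone) were used. The calls and intervals were also run on simulated counts with counting error alone, which cannot check variation between mice or reads shared between genes.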

Additional observations from a re-analysis of the deposited data

How the results depend on the processing

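None of the members was past 2-fold under any alternative tried. Directions near 0 depended on the scaling between the libraries. At high levels it shifted log2 ratios by -0.10 (median ratio) or -0.11 (TMM), and by 0.01 after rescaling to TPM. Shifts were smaller at low levels, where the added 1 FPKM weighs more. Scaled by the median ratio, the median log2 ratio was -0.0430 for all members, -0.0489 for the large subunit, -0.00150 for all measured genes, 0.14 for the cytosolic ribosome and -0.20 for the respiratory chain. With TMM factors these medians were -0.0530, -0.0589, -0.0109, 0.13 and -0.21, and that of the small subunit was -0.01. Large subunit genes above 0 numbered 19 and 17 under these scalings, members with an interval above 1 numbered 4 and 4, and those with an interval below 1 numbered 8 and 9. Summed count ratios were 0.974 and 0.967 for the large and 0.969 and 0.962 for the small subunit. After rescaling to TPM, 15 members had an interval above 1 and 3 had one below 1, against 11 and 4 when scaled by library totals.

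The median of all measured genes was 0.0623 without a filter, 0.0736 at FPKM of 5 or more, 0.10 with a pseudocount of 0.1 FPKM, 0.10 as TPM, 0.0921 on expected counts and 0.11 as a mean. Restricting to members without exon overlap left 22 large subunit genes above 0 (of 31). Restricting to members with whole counts left 6 intervals above 1 (of 62). Mrpl15, Mrpl35, Mrpl43, Mrps6 and Mrps24, whose intervals lay above 1, dropped out because their counts are not whole numbers. Both restrictions were chosen after seeing the data, and fewer genes entered. Among 26 named members under 5 alternatives each, Mrpl12 (-0.07 by the median ratio, -0.08 with TMM factors) and Mrps16 (-0.01 with TMM factors) changed sign, and that of Mrpl12 with TMM factors was the 1 of 130 log2 ratios that moved beyond its counting interval. The cause of the other shifts was not tested. No paired analysis was possible because each genotype had 1 library, and for the same reason no replicate could be left out. At 112 to 1430 counts per gene, differences well below 1.5-fold lie inside most counting intervals.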
